A study of Mus musculus with 24 samples.

Results

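The genes described here are 54 genes of the G2 phase and of mitosis, listed by name and grouped into 7 roles from entry kinases to transcription factors. All 54 were found among the 23366 genes of the deposited tables under the symbols used here, and all 54 passed the low-count filter of every fit. RNA was measured in 24 libraries of mouse CD8+ T cells (strain C57BL/6), each made from 1000 sorted cells, in 8 groups of 3. Naive CD8+ T cells (CD62L high, CD44 negative) from spleen and lymph nodes were stimulated through CD3 and CD28, with plate-bound antibodies used at 1 µg/ml. All mice carried a loxP-flanked glucocorticoid receptor gene (Nr3c1 fl/fl). WT cells lacked the E8i-Cre transgene, which acts in CD8+ T cells under a Cd8 enhancer, and cKO cells carried it. Day 3 libraries followed 3 days of stimulation of WT or cKO cells with nothing added (Ctrl) or with the synthetic glucocorticoid dexamethasone (Dex) at 10 nM. Day 9 libraries came from WT cells only, which were stimulated for 3 days, kept in IL2 (5 ng/ml) for a further 3 and then restimulated for 3 more. They received nothing, Dex at 10 nM, the cytokine IL27 at 25 ng/ml, or both (Dex+IL27) during both stimulations. The labels give no age or sex of the mice nor whether replicate libraries of a group derive from different animals or cultures. The spread behind each p-value is therefore that of these libraries, and may be technical.

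Cells enter mitosis when the kinase Cdk1, bound to a B-type cyclin, is switched on by Cdc25 phosphatases and helped by Plk1 and Aurora kinases. Chromosomes are condensed, their kinetochores attach to the spindle, and the spindle checkpoint holds back the ubiquitin ligase APC/C until every chromosome is attached. The APC/C then releases separase and destroys the cyclins, and the cell divides by cytokinesis. Most of these genes are transcribed late in the cell cycle, under the MuvB complex with Mybl2 (B-Myb) and Foxm1, often through a CHR element, which MuvB binds, and CCAAT boxes, which NF-Y binds. Stimulated CD8+ T cells divide rapidly, and in bulk RNA a smaller share of cells in mitosis and less RNA per cell cannot be told apart.

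Promoter windows were available for 45 of the 54 genes, from 250 bases before to 50 after the RefSeq start (GRCm38.p6). The CHR element was searched as TTTGAA or TTCAAA and the CCAAT box as CCAAT or ATTGG, which covers both strands; the motifs do not overlap each other. Counted per gene, with any of its windows, the CHR letters were found for 31 of the 45 genes (68.9%), against 20.2% of all 27025 genes with a window of that length. The CCAAT letters were found for 33 (73.3%), against 41.1% of all genes, and both motifs in 1 window for 28 (62.2%), against 7.97%. A match describes the letters only. No window was matched for Ccna2, Cdc25c, Aurkb, Incenp, Spc24, Tpx2, Kif20a, Smc4 and Foxm1.

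The next 6 promoters run from 200 bases before to 30 after the start, 5′ to 3′ on the gene's strand, with both motifs in capitals. Ccnb2 (chr9:70421525-70421754, minus strand) and Cdc20 (chr4:118437314-118437543, minus strand) are among the genes that fell in every treated group at day 9. Both hold both motifs near the start. Other genes that fell in every treated group, such as Birc5, Ube2s and Nuf2, hold neither motif in their windows.
Ccnb2: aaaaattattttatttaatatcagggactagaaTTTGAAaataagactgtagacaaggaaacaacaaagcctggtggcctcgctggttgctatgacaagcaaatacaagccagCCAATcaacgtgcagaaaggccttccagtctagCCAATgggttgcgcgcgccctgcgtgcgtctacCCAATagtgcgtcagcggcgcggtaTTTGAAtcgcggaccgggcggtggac
Cdc20: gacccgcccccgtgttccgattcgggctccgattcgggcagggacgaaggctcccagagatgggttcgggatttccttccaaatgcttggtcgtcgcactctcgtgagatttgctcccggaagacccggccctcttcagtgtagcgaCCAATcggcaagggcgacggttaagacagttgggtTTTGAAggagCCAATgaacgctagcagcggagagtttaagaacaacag
Racgap1 (chr15:99651627-99651856, minus strand) holds both motifs too, and is shown because its levels followed another order across the groups than those of most members.
Racgap1: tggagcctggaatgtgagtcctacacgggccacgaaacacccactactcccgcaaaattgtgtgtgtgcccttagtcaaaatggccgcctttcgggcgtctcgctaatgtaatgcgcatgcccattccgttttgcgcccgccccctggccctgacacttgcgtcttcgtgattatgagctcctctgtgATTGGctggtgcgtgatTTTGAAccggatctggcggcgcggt
Cdc25b (chr2:131186748-131186977, plus strand), the member with the largest rise with Dex, holds a CCAAT box and no CHR.
Cdc25b: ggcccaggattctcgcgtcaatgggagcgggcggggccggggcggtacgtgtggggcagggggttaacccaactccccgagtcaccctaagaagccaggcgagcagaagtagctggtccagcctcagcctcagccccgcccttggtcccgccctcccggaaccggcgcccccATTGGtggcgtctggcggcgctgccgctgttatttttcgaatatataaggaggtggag
Mybl2 (chr2:163054435-163054664, plus strand), with the largest fall, and Pttg1 (chr11:43425952-43426181, minus strand), which passed no test at day 9, hold neither motif in this window.
Mybl2: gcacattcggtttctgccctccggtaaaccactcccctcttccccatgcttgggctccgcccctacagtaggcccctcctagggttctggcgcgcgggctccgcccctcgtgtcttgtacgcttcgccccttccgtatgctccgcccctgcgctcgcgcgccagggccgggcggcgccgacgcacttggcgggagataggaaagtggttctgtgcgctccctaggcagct
Pttg1: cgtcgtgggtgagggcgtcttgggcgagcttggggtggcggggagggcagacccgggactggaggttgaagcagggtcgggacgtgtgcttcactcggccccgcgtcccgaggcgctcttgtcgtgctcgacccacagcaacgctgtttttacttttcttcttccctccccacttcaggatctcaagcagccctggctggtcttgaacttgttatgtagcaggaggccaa
The changes of members with and without a CHR were set side by side, with no test. In Dex against Ctrl at day 9 the median log2 change was -0.20 in the 31 genes with a CHR and -0.40 in the 14 without. With IL27 the medians were -0.96 and -0.95, and with Dex+IL27 they were -0.96 and -1.17.

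Before the results, the libraries were checked. Nr3c1 was at 2.37 to 3.39 FPKM in the 6 WT libraries of day 3 and at 0.85 to 1.31 in the 6 cKO libraries, with a log2 change of -1.14 ± 0.15 (SE) without Dex and -1.65 ± 0.15 with Dex. Totals were 14221883 to 19018440 estimated counts per library. CD8 T cell markers were high in every library, at a summed 1114 to 1736 FPKM over 7 genes; at day 9 they were at 1256 to 1366 in Ctrl, 1420 to 1588 with Dex, 1354 to 1658 with IL27 and 1457 to 1736 with Dex+IL27. Among the 7 genes, Cd8a was at 103.2 to 131.9 FPKM in day 9 Ctrl and 107.4 to 130.9 with Dex. It was lower with IL27, at 67.91 to 87.19, and with Dex+IL27, at 81.72 to 101.8, with no overlap with Ctrl. B cell, myeloid, CD4 T cell, NK cell and erythroid lists summed to at most 17.6 FPKM. The share of counts at the ribosomal RNA gene Rn45s moved with treatment at day 9, from 8.95% to 9.25% in Ctrl to 14.08% to 15.05% with Dex, 13.77% to 14.55% with IL27 and 15.79% to 16.38% with Dex+IL27, and its part in the changes below was not tested. With Rn45s left out before scaling, 24, 50 and 43 members fell with Dex, IL27 and Dex+IL27, the same numbers as with it, and the rises with Dex went from 6 to 5, without Ckap2. The myeloid list of 6 genes moved too, from 2.34 to 4.05 in Ctrl to 9.57 to 12.2 FPKM with Dex, 11.53 to 13.76 with IL27 and 13.75 to 14.97 with Dex+IL27. Nearly all of that sum was Cd68: Lyz2, Csf1r, Itgax and Emr1 stayed at or below 0.11 FPKM in every day 9 library, and Lyz2 and Emr1 were listed at 0 with Dex and with Dex+IL27. The CD4 T cell list of 4 genes moved the other way, from 6.76 to 13.35 in Ctrl to 3.98 to 5 FPKM with Dex, 5.42 to 6.69 with IL27 and 3.86 to 4.33 with Dex+IL27; Cd40lg in it ranged from 0.18 to 11.12 over the day 9 libraries, and Cd4 itself was at most 1. The B cell list of 5 genes was at 7.39 to 8.62 in Ctrl and 5.19 to 6.19 with Dex+IL27, with Ms4a1 and Pax5 listed at 0 in every day 9 library, and overlapped Ctrl with Dex and with IL27. The part of these lists in the changes was not tested. Among the day 9 libraries, Ctrl replicate 1 stood apart with the highest summed mitosis level, and counts are given below without it.

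In restimulated cells at day 9, IL27 lowered nearly the whole set, Dex lowered fewer members and by less, and adding Dex to IL27 moved few members further. With IL27, 50 of 54 genes fell and 4 did not pass the test, where 28.1% of the 12320 genes tested fell. With Dex, 24 fell against a background of 27.4%, 6 rose against 28.2%, and 24 did not pass. With Dex+IL27, 43 fell against 32.6%, 1 rose against 34.3% and 10 did not pass. The median log2 change was -0.91 with IL27 (53.1% of Ctrl), -0.21 with Dex (86.3% of Ctrl) and -0.96 with Dex+IL27 (51.4% of Ctrl), while the median over all genes tested was 0.03, 0.03 and 0.05. A gene passed at a Benjamini-Hochberg adjusted p under 0.05 in edgeR's quasi-likelihood test, and the 3 comparisons share the same 3 Ctrl libraries.

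**Figure D1:**
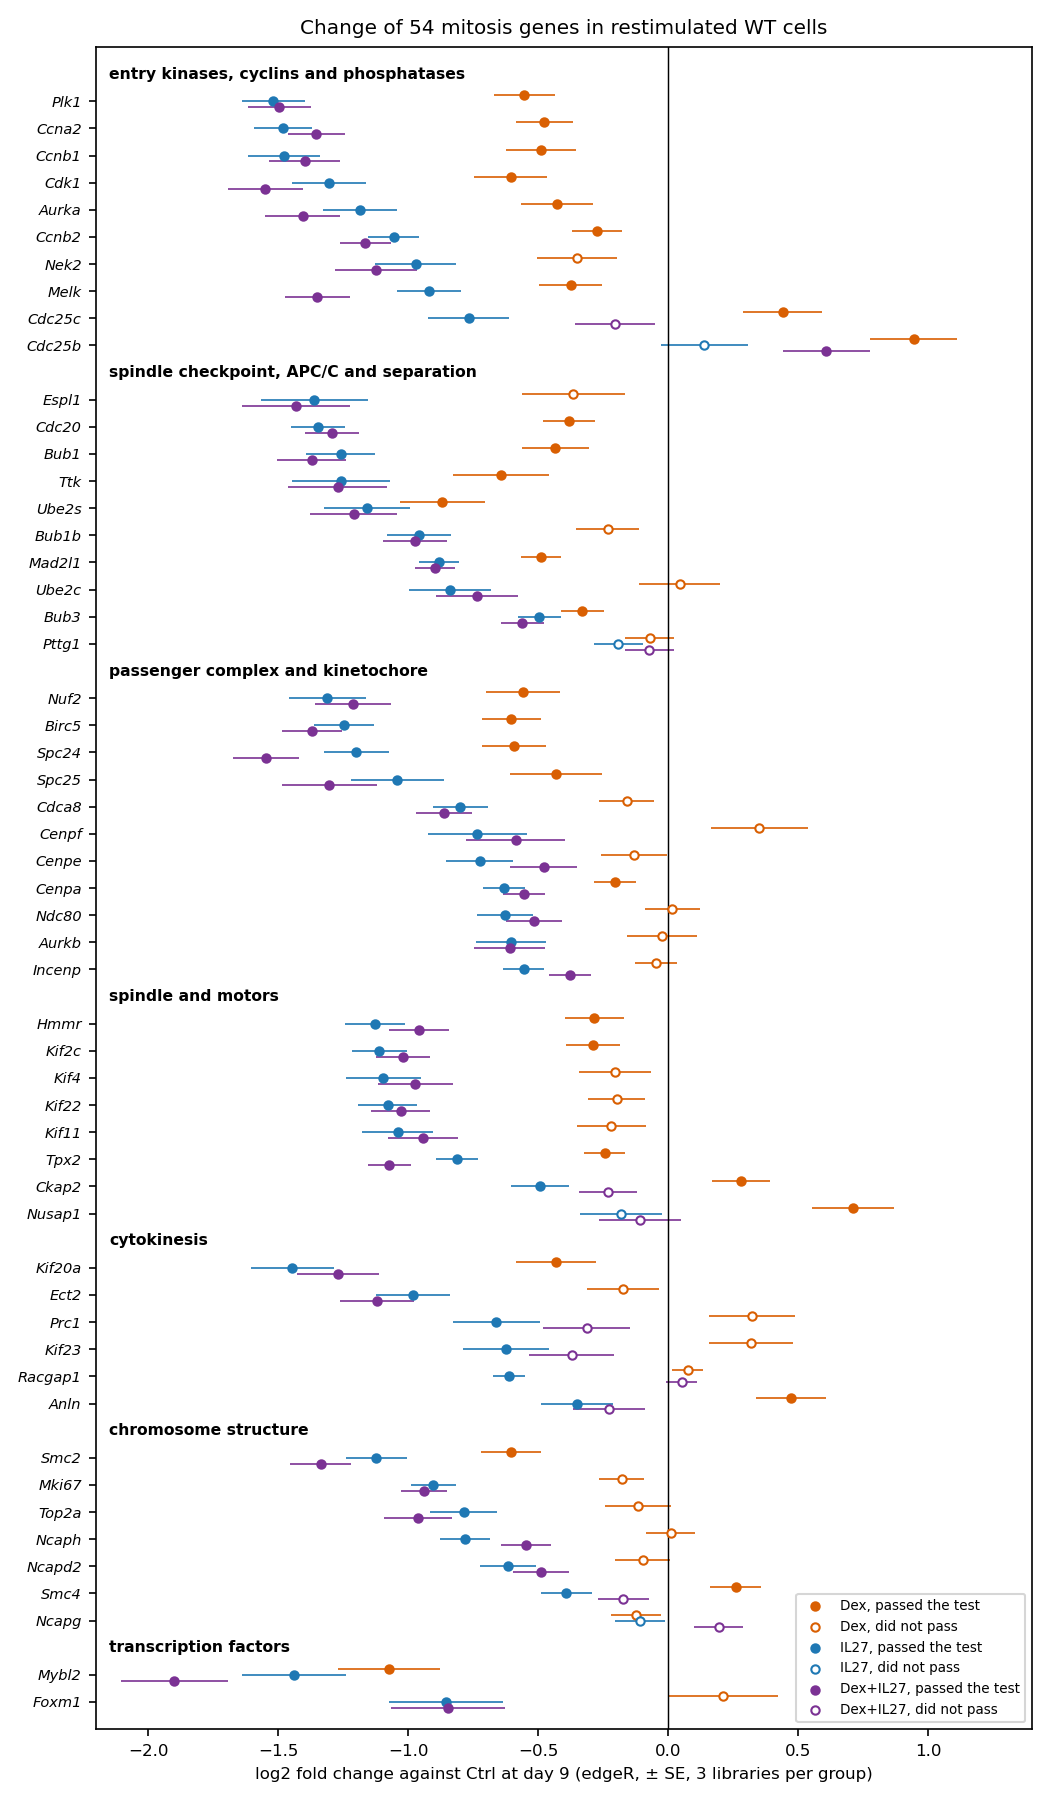
Log2 fold change against Ctrl at day 9 (horizontal axis, ± SE, 3 libraries per group) for each of the 54 genes, grouped by role, with Dex in orange, IL27 in blue and Dex+IL27 in purple; filled points passed the test. IL27 and Dex+IL27 points lie mostly between -0.5 and -1.5, and Dex points lie on both sides of 0, from -1.07 (Mybl2) to 0.94 (Cdc25b).

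Without Ctrl replicate 1, 49 members fell with IL27, 15 fell and 9 rose with Dex, and 42 fell and 1 rose with Dex+IL27. The Dex counts leaned most on single libraries. Of the 24 falls with Dex, 10 (Ccnb2, Aurka, Melk, Bub1, Cenpa, Spc25, Kif2c, Tpx2, Hmmr and Kif20a) did not pass without Dex replicate 1, and all of these but Ccnb2 also did not pass without Ctrl replicate 1. Of the 6 rises, those of Cdc25c, Smc4 and Ckap2 did not pass without Ctrl replicate 2 or without Dex replicate 2. Those of Smc4 and Ckap2 also did not pass without Ctrl replicate 3, without Dex replicate 3 or with library totals as the scaling, and that of Ckap2 not without Dex replicate 1; of 17 alternatives, Smc4 was lost in 9 and Ckap2 in 12.

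Members differed widely in abundance. In FPKM, which is per length and so comparable between genes, Ube2c was the highest member in day 9 Ctrl at 202.5 ± 55.9 (SD, n = 3), and Birc5, Bub3, Ccnb1, Cdc20, Cenpa and Ccnb2 followed at 137 ± 12.3, 126 ± 12.5, 123 ± 21.7, 112 ± 4.3, 104 ± 3.02 and 102.5 ± 5.95. Neighbours in this order overlapped in their 3 libraries, except Ube2c with Birc5 and Cdc20 with Cenpa. Cenpf, a large kinetochore protein, was the lowest at 2.55 ± 0.735 FPKM, and Anln, Foxm1, Cenpe, Espl1 and Mybl2 followed from 3.95 to 5.78 FPKM.

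The entry genes, 10 kinases, cyclins and phosphatases, held the steepest fall with IL27 and the largest rise with Dex. With IL27 9 fell, with Dex 7 fell and 2 rose, and with Dex+IL27 8 fell and 1 rose. Ccnb1, the main mitotic cyclin, was at 148, 113 and 109 FPKM in the Ctrl libraries, 74.5, 101 and 85.9 with Dex, 42.9, 46.2 and 42.6 with IL27 and 51.3, 48.5 and 37.1 with Dex+IL27. Ccna2, the cyclin of S phase and early mitosis, was at 101, 92.6 and 86.3 FPKM in the Ctrl libraries, 55.8, 78.05 and 65.6 with Dex, 32.5, 35.6 and 31.1 with IL27 and 37.01, 38.2 and 31.5 with Dex+IL27. Ccnb2, the second B-type cyclin, was at 100.1, 109 and 98.05 FPKM in the Ctrl libraries, 78.3, 89.1 and 84.8 with Dex, 46.5, 52.8 and 47.1 with IL27 and 50.1, 46.2 and 37.2 with Dex+IL27. In these 3 cyclins every Dex library lay below every Ctrl library, every IL27 and Dex+IL27 library lay below every Dex library, and the IL27 and Dex+IL27 libraries overlapped. The log2 change of Ccnb1 was -0.49 ± 0.13 (SE) with Dex, -1.48 ± 0.14 with IL27 and -1.40 ± 0.14 with Dex+IL27 (adjusted p = 0.00624, 4.69e-07 and 3.63e-07). Plk1, the Polo-like kinase of mitotic entry and spindle assembly, was at 73.6, 53.8 and 51.9 FPKM in the Ctrl libraries, 35.3, 44.1 and 41.6 with Dex, 21.4, 20.2 and 20.3 with IL27 and 20.5, 21.7 and 19.8 with Dex+IL27. Its groups stood in the same order, and its fall with IL27 was the largest of the 54 genes at -1.52. Cdk1, the mitotic kinase itself, changed by -0.61 with Dex, -1.30 with IL27 and -1.55 with Dex+IL27, and Aurka, the Aurora kinase of spindle poles, by -0.43, -1.19 and -1.41. Melk fell by 0.38, 0.92 and 1.35 in the same order. Nek2, a kinase of centrosome separation, changed by -0.35 with Dex, which did not pass (adjusted p = 0.064), and fell by 0.97 with IL27.

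The Cdc25 phosphatases, which remove the inhibiting phosphates from Cdk1, rose with Dex, where 7 of the other 8 entry genes fell. Cdc25b was at 15.7, 10.7 and 10.1 FPKM in the Ctrl libraries, 21.7, 25.7 and 22.2 with Dex, 15.6, 12.8 and 11.3 with IL27 and 19.97, 19.4 and 14.7 with Dex+IL27. Every Dex library was above every other day 9 library, while the IL27 and Dex+IL27 libraries overlapped the Ctrl libraries. Cdc25b rose with Dex by 0.94 ± 0.17 (SE; 95% interval 0.59 to 1.30, adjusted p = 2.17e-04) and with Dex+IL27 by 0.61 ± 0.17 (adjusted p = 0.00477), the only rise there. With IL27 its change was 0.14 (interval -0.22 to 0.50), which did not pass. Cdc25c was at 13, 11 and 13.7 FPKM in the Ctrl libraries, 15.2, 18.8 and 16.8 with Dex, 6.31, 9.50 and 6.14 with IL27 and 10.1, 11.9 and 9.86 with Dex+IL27. Its Dex libraries were all above Ctrl and its IL27 libraries all below, and the Dex+IL27 libraries overlapped Ctrl but lay above IL27. The log2 changes of Cdc25c were 0.44 with Dex, -0.77 with IL27 and, not passing, -0.20 with Dex+IL27. An exon of Cdc25b overlaps Spef1 on the other strand, and since the protocol keeps no strand, reads of such partners cannot be told apart. The same holds for Ccna2 with Exosc9, Cdc20 with Elovl1, Nusap1 with Oip5, Prc1 with Rccd1 and Kif4 with Pdzd11. It also holds for Ncapg with Lcorl, Kif20a with Cdc23 and Ube2c with Tnnc2. Exons of Plk1, Nek2 and Foxm1 overlap those of genes that are absent from the deposited tables.

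**Figure D2:**
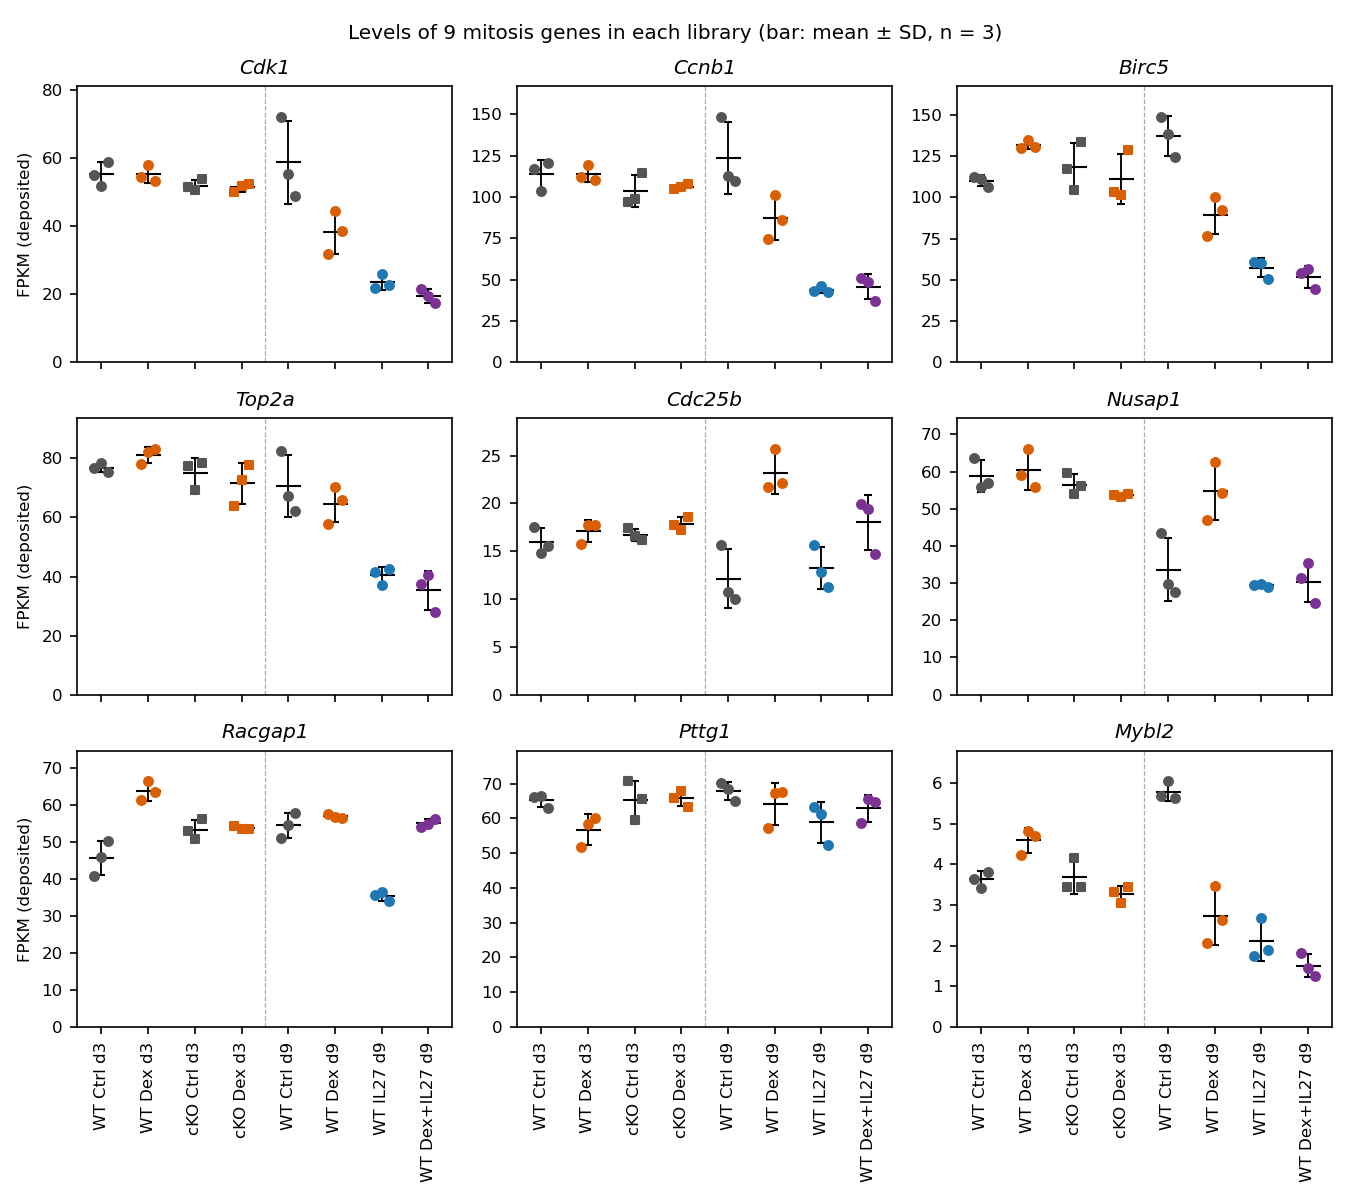
Deposited FPKM (vertical axis, linear from 0) of 9 members in each of the 24 libraries; points are libraries, squares are cKO, bars are mean ± SD (n = 3) and the dashed line separates day 3 from day 9. Ccnb1 and Birc5 step down from Ctrl to Dex to IL27 at day 9, Cdc25b and Nusap1 are highest with Dex, and Racgap1 is low in the 3 IL27 libraries at 33.9 to 36.4.

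Of 10 genes of the spindle checkpoint, the APC/C and chromosome separation, 9 fell with IL27, 9 with Dex+IL27 and 6 with Dex. Cdc20, the APC/C activator that the checkpoint restrains, was at 117, 108 and 110.1 FPKM in the Ctrl libraries, 76.9, 91.4 and 86.8 with Dex, 45.2, 44.4 and 40.7 with IL27 and 43.4, 52.5 and 37.4 with Dex+IL27. Mad2l1, the checkpoint protein that binds Cdc20, was at 71.1, 70.1 and 67.2 FPKM in the Ctrl libraries, 44.7, 52.3 and 50.1 with Dex, 35.9, 37.6 and 38.5 with IL27 and 33.9, 38.96 and 36.1 with Dex+IL27. Both stood in the order Ctrl, Dex and then the IL27 and Dex+IL27 libraries together, with no overlap between those 3 levels. Bub3, which brings checkpoint kinases to kinetochores, was at 140.2, 119 and 118 FPKM in the Ctrl libraries, 89.2, 109.5 and 98.8 with Dex, 82.4, 92.9 and 89.7 with IL27 and 83.1, 82.7 and 83.3 with Dex+IL27. Its Dex libraries lay below Ctrl and overlapped the IL27 libraries, and its changes of -0.33, -0.50 and -0.56 with Dex, IL27 and Dex+IL27 were among the smaller falls. The checkpoint kinases Bub1 and Ttk fell by 1.26 and 1.26 with IL27 and by 0.43 and 0.64 with Dex. Bub1b fell by 0.96 with IL27, and its change of -0.23 with Dex did not pass.

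Ube2c and Ube2s, the ubiquitin-conjugating enzymes that start and extend chains for the APC/C, differed in whether they passed under Dex. The difference between them was not tested. Ube2c was at 267, 175 and 166 FPKM in the Ctrl libraries, 179.8, 239 and 203 with Dex, 127, 107 and 102 with IL27 and 125, 125 and 105 with Dex+IL27. The Dex libraries lay within the Ctrl range, which Ctrl replicate 1 set at its top, and the IL27 and Dex+IL27 libraries lay below it. Its log2 change was 0.04 with Dex (interval -0.29 to 0.38) and -0.84 with IL27 (adjusted p = 3.60e-04). Ube2s fell in all 3 treated groups, with log2 changes of -0.87 ± 0.16 (SE) with Dex, -1.16 ± 0.16 with IL27 and -1.21 ± 0.17 with Dex+IL27. Pttg1 (securin), the inhibitor that holds separase until anaphase, was at 70.1, 68.6 and 65.05 FPKM in the Ctrl libraries, 57.2, 67.4 and 67.7 with Dex, 63.3, 61.2 and 52.2 with IL27 and 58.5, 65.6 and 64.6 with Dex+IL27. Every IL27 library lay below every Ctrl library, while the Dex and Dex+IL27 libraries overlapped Ctrl. The changes were small, at -0.07, -0.19 and -0.07 with Dex, IL27 and Dex+IL27, and none passed (intervals -0.27 to 0.13, -0.39 to 0.01 and -0.27 to 0.13). Espl1, separase itself, fell by 1.36 with IL27 and 1.43 with Dex+IL27, and its change of -0.36 with Dex did not pass.

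All 11 genes of the chromosomal passenger complex and the kinetochore fell with IL27 and with Dex+IL27, and 5 fell with Dex. Birc5 (survivin), which targets the passenger complex to centromeres, was at 149, 139 and 124 FPKM in the Ctrl libraries, 76.6, 100.1 and 92.1 with Dex, 61.1, 59.96 and 50.8 with IL27 and 54, 56.7 and 44.5 with Dex+IL27. Its Dex libraries lay between Ctrl and the IL27-treated groups without overlap, with log2 changes of -0.60 ± 0.11 (SE), -1.25 ± 0.12 and -1.37 ± 0.12 with Dex, IL27 and Dex+IL27. Its partners moved less. Aurkb, the kinase of the complex, was at 72.3, 53.4 and 53.1 FPKM in the Ctrl libraries, 47.2, 64.6 and 62.96 with Dex, 40.9, 38.7 and 36.9 with IL27 and 38.5, 42.7 and 32.9 with Dex+IL27. Cdca8 (borealin) was at 91.99, 83.5 and 80.8 FPKM in the Ctrl libraries, 68.5, 81.8 and 77.1 with Dex, 45.3, 54.5 and 46 with IL27 and 44.4, 53.5 and 39.6 with Dex+IL27. For Aurkb and Cdca8 the Dex libraries overlapped Ctrl and the changes of -0.02 and -0.16 did not pass, while with IL27 they fell by 0.60 and 0.80. Incenp, the scaffold of the complex, fell by 0.56 with IL27 and 0.38 with Dex+IL27, with a change of -0.05 with Dex that did not pass.

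Cenpa, the histone H3 variant that marks centromeres, was at 105, 106 and 100.4 FPKM in the Ctrl libraries, 80.4, 94.5 and 93.3 with Dex, 64.5, 71.6 and 63.03 with IL27 and 68.5, 75.2 and 62.95 with Dex+IL27. Its groups stood in the order Ctrl, Dex and then IL27 and Dex+IL27 together, and the Dex fall of -0.20 passed narrowly (adjusted p = 0.0446). The 4 subunits of the Ndc80 complex, which binds microtubules, differed in whether they passed under Dex, and differences between them were not tested. Nuf2 and Spc24 fell by 0.56 and 0.59, Spc25 fell by 0.43 at the edge of the threshold (adjusted p = 0.0499), and Ndc80 changed by 0.02, which did not pass (interval -0.21 to 0.24). With IL27 all 4 fell, with log2 changes of -1.31 for Nuf2, -1.20 for Spc24, -1.04 for Spc25 and -0.63 for Ndc80. The kinetochore proteins Cenpe, a motor, and Cenpf fell by 0.73 and 0.73 with IL27. With Dex their changes of -0.13 and 0.35 did not pass.

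Of the 8 spindle and motor genes, 7 fell with IL27, 6 with Dex+IL27, and with Dex 3 fell and 2 rose. Kif22, a chromosome-arm motor, was at 41.3, 38.5 and 35.99 FPKM in the Ctrl libraries, 30.3, 36.96 and 32.8 with Dex, 19.3, 18.4 and 16.5 with IL27 and 16.3, 21.9 and 17.1 with Dex+IL27. Tpx2, the activator of Aurka on spindle microtubules, was at 39.1, 33.6 and 36.4 FPKM in the Ctrl libraries, 28.6, 32.1 and 30.6 with Dex, 20.1, 21.4 and 20.1 with IL27 and 18.1, 17.4 and 14.99 with Dex+IL27. The Dex+IL27 libraries of Tpx2 lay below every IL27 library, and its changes were -0.24 with Dex, -0.81 with IL27 and -1.07 with Dex+IL27. Hmmr, a spindle and centrosome protein, was at 33.5, 26.7 and 29.5 FPKM in the Ctrl libraries, 20.9, 28.6 and 23.6 with Dex, 13.3, 14.5 and 12.8 with IL27 and 16.4, 15.1 and 13.4 with Dex+IL27. Its Dex libraries overlapped Ctrl, and the fall of -0.28 passed at an adjusted p of 0.045. The motors Kif11, Kif2c and Kif4 fell by 1.04, 1.11 and 1.10 with IL27. With Dex, Kif2c fell by 0.29, and the changes of -0.22 for Kif11, -0.20 for Kif4 and -0.20 for Kif22 did not pass.

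Nusap1 and Ckap2, microtubule-binding proteins of the spindle, were higher with Dex. Nusap1 was at 43.5, 29.8 and 27.7 FPKM in the Ctrl libraries, 47.1, 62.7 and 54.2 with Dex, 29.6, 29.7 and 28.9 with IL27 and 31.3, 35.4 and 24.6 with Dex+IL27. Every Dex library was above every Ctrl library, and the IL27 and Dex+IL27 libraries overlapped Ctrl. Nusap1 rose by 0.71 ± 0.16 (SE, adjusted p = 0.00132) with Dex, and its changes of -0.18 with IL27 and -0.11 with Dex+IL27 did not pass. Ckap2 was at 19.7, 16.4 and 16.96 FPKM in the Ctrl libraries, 20.7, 21.4 and 21.9 with Dex, 12.2, 14.5 and 10.7 with IL27 and 13.3, 16.2 and 14.6 with Dex+IL27. Its Dex libraries were all above and its IL27 and Dex+IL27 libraries all below Ctrl, with changes of 0.28 and -0.49 that passed and -0.23 with Dex+IL27 that did not (adjusted p = 0.0806).

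The cytokinesis genes were the role with the smallest share lowered by Dex+IL27: 2 of 6 fell there, while all 6 fell with IL27, and with Dex 1 fell and 1 rose. Racgap1, the GTPase-activating subunit of centralspindlin, was at 51.1, 54.7 and 57.8 FPKM in the Ctrl libraries, 57.5, 56.9 and 56.5 with Dex, 35.7, 36.4 and 33.9 with IL27 and 53.98, 54.8 and 56.3 with Dex+IL27. The Dex and Dex+IL27 libraries overlapped Ctrl, and the IL27 libraries lay apart below all of them. Racgap1 fell by 0.61 ± 0.06 (SE) with IL27 (adjusted p = 8.80e-07), and its changes of 0.07 with Dex and 0.05 with Dex+IL27 did not pass (intervals -0.05 to 0.20 and -0.08 to 0.18). Kif23, its motor partner in centralspindlin, was at 16.9, 12.1 and 13.3 FPKM in the Ctrl libraries, 15.2, 20.8 and 16.1 with Dex, 10.2, 8.87 and 8.12 with IL27 and 12.2, 11.4 and 8.15 with Dex+IL27. Prc1, which bundles midzone microtubules, was at 38.4, 27.01 and 23.1 FPKM in the Ctrl libraries, 31.4, 41.7 and 36.8 with Dex, 22.1, 17.4 and 15.9 with IL27 and 25, 23.02 and 21.4 with Dex+IL27. In both the Dex and Ctrl libraries overlapped, IL27 libraries were all below Ctrl, and Dex+IL27 libraries reached into the Ctrl range. With IL27, Kif23 and Prc1 fell by 0.62 and 0.66, and with Dex+IL27 their changes were -0.37 and -0.31, which did not pass.

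Anln, the anillin scaffold of the contractile ring, was at 4.50, 3.64 and 3.71 FPKM in the Ctrl libraries, 4.77, 5.61 and 5.93 with Dex, 3.63, 2.59 and 2.96 with IL27 and 3.44, 3.40 and 3.01 with Dex+IL27. It rose with Dex by 0.47 (adjusted p = 0.00818), and its fall of -0.35 with IL27 passed at an adjusted p of 0.0405, was lost without Ctrl replicate 1 and reached an adjusted p of 0.168 among the alternatives. Kif20a, a motor that carries the passenger complex to the midzone, was at 35.1, 33.6 and 31.1 FPKM in the Ctrl libraries, 18.8, 28.4 and 26.3 with Dex, 13.4, 11.9 and 10.99 with IL27 and 16.1, 14 and 10.2 with Dex+IL27. Its levels stood in the order Ctrl, Dex and then IL27 and Dex+IL27, and it fell by 0.43, 1.45 and 1.27. Ect2, the exchange factor that activates RhoA at the furrow, fell by 0.98 with IL27 and 1.12 with Dex+IL27, with a change of -0.17 with Dex that did not pass.

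Of the 7 chromosome structure genes, 6 fell with IL27, 5 with Dex+IL27, and with Dex 1 fell and 1 rose. Top2a, the topoisomerase that untangles sister chromatids, was at 82.5, 67.2 and 62.3 FPKM in the Ctrl libraries, 57.9, 70.2 and 65.8 with Dex, 41.6, 37.2 and 42.7 with IL27 and 37.5, 40.7 and 27.8 with Dex+IL27. Ncapd2, a condensin I subunit, was at 34.05, 33.7 and 31.6 FPKM in the Ctrl libraries, 30.4, 33.7 and 28.04 with Dex, 22.9, 23.04 and 18.2 with IL27 and 23.9, 25.4 and 19.6 with Dex+IL27. In both the Dex libraries overlapped Ctrl and the IL27 and Dex+IL27 libraries lay below Ctrl. Top2a fell by 0.79 with IL27 and 0.96 with Dex+IL27, and Ncapd2 by 0.62 and 0.49. The core condensin ATPases went apart under Dex. Smc2 fell by 0.60 ± 0.12 (SE, adjusted p = 4.12e-04), and Smc4 rose by 0.26 ± 0.10 (adjusted p = 0.035). Smc4 was at 54.1, 48.9 and 45.9 FPKM in the Ctrl libraries, 53.7, 64.6 and 58.5 with Dex, 36.2, 38.3 and 37.8 with IL27 and 40.99, 50.2 and 37.5 with Dex+IL27. The lowest Dex library was just inside the Ctrl range, and the IL27 libraries were all below it.

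Ncapg, another condensin I subunit, was at 36.7, 33.3 and 34 FPKM in the Ctrl libraries, 27.5, 36.8 and 30.4 with Dex, 34.01, 30.9 and 30.6 with IL27 and 36.3, 41.8 and 37.9 with Dex+IL27. All groups overlapped Ctrl and no change against Ctrl passed, with values of -0.12, -0.11 and 0.19 for Dex, IL27 and Dex+IL27. Its partner Ncaph fell by 0.78 with IL27 and 0.55 with Dex+IL27. Mki67 (Ki-67), the coat of mitotic chromosomes used as a proliferation marker, fell by 0.90 and 0.94, and its change of -0.18 with Dex did not pass.

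The transcription factors of the programme differed in whether they passed under Dex, and the difference between them was not tested. Mybl2 was at 5.67, 6.04 and 5.62 FPKM in the Ctrl libraries, 2.07, 3.46 and 2.63 with Dex, 1.75, 2.68 and 1.90 with IL27 and 1.82, 1.45 and 1.25 with Dex+IL27. Every treated library was below every Ctrl library, and Mybl2 held the largest fall of the 54 genes with Dex, -1.07 ± 0.20 (SE, adjusted p = 2.90e-04), and with Dex+IL27, -1.90 ± 0.21 (adjusted p = 9.81e-07). Foxm1 was at 4.80, 4.07 and 3.42 FPKM in the Ctrl libraries, 2.91, 5.63 and 5.57 with Dex, 2.62, 2.23 and 1.88 with IL27 and 2.23, 2.37 and 2.06 with Dex+IL27. Its Dex libraries spread across and beyond the Ctrl range, with a change of 0.21 (interval -0.24 to 0.66) that did not pass, and it fell by 0.85 with IL27 and 0.85 with Dex+IL27.

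The size of the changes was compared directly between the treated groups. Levels were higher with Dex than with IL27 for 49 of 54 genes, where 9.1% of all genes tested were higher, and the other 5 (Bub3, Ube2s, Pttg1, Ncapg and Mybl2) did not pass. The median difference was 0.74 on the log2 scale (166.9% of the IL27 level). It was largest for Cdc25c at 1.21, Cenpf at 1.08 and Foxm1 at 1.06. Adding IL27 to Dex lowered 48 members against a background of 17.1%, raised 1 against 14.9% and left 5 that did not pass, with a median of -0.74. The falls were largest for Espl1 at -1.07, Foxm1 at -1.06 and Aurka at -0.98. The rise was that of Ncapg, 0.32 (adjusted p = 0.0205), which was lost without Dex replicate 1 or 3, without Dex+IL27 replicate 2, and with library totals as the scaling. The 5 that did not pass were Cdc25b at -0.34, Ube2s at -0.34, Pttg1 at -0.00, Cenpe at -0.35 and Racgap1 at -0.02.

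Adding Dex to IL27 changed few members. Of 54 genes, 3 were higher with Dex+IL27 than with IL27 alone, against a background of 11.7%, 2 were lower, against 14.3%, and 49 did not pass, with a median of 0.06. With library totals as the scaling the split was 2 higher and 3 lower. Racgap1 was higher by 0.66 ± 0.06 (SE, adjusted p = 5.09e-06) and passed in every alternative. Cdc25c was higher by 0.56 and Ncapg by 0.30, and Melk and Tpx2 were lower by 0.43 and 0.26 (adjusted p from 0.0164 to 0.0309). The call of Cdc25c was lost without IL27 replicate 3 or Dex+IL27 replicate 2, and those of Ncapg, Melk and Tpx2 without IL27 replicate 2 or 3. The count was 9 without IL27 replicate 1, 3 without replicate 2 and 1 without replicate 3. For the members that did not pass, the intervals bound the difference, as for Cdk1 (-0.55 to 0.06), Ccnb1 (-0.21 to 0.37), Cdc20 (-0.16 to 0.27) and Top2a (-0.45 to 0.10).

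**Figure D3:**
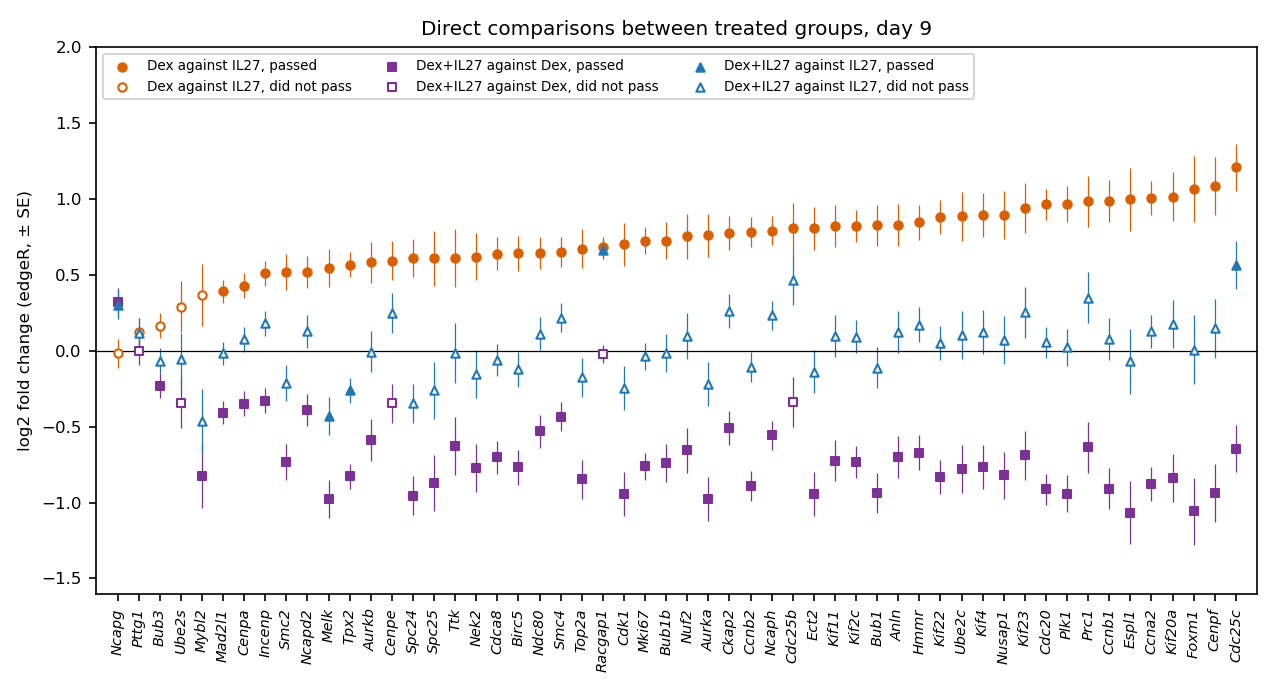
Log2 fold change (vertical axis, ± SE) of each of the 54 genes in the 3 direct comparisons between treated groups at day 9, with genes ordered by Dex against IL27; filled symbols passed the test. Dex against IL27 lies above 0 for 53 genes, Dex+IL27 against Dex lies below 0 for 53, and Dex+IL27 against IL27 lies around 0 with a median of 0.06.

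The interaction asked whether the change with both agents equalled the sum of their separate log2 changes. It was above 0 (a smaller fall, or a larger rise, than the sum) for 11 genes against a background of 13.7% and below 0 for 1 against 14.7%, and 42 did not pass. The median was 0.23, against -0.02 over all genes. The 11 were Ccna2, Ccnb1, Plk1, Mad2l1, Cdc20, Ube2s, Birc5, Nuf2, Hmmr, Racgap1 and Ncapg, from 0.43 for Ncapg to 0.82 for Ube2s. Plk1 is an example: its changes were -0.55 with Dex, -1.52 with IL27 and -1.50 with both, and its interaction 0.58 ± 0.17 (SE, adjusted p = 0.0197). The gene below 0 was Nusap1, which was higher with Dex alone and not with both (-0.64, adjusted p = 0.0429). The interactions of Ccna2, Mad2l1, Ube2s and Racgap1 passed in every alternative, and the others leaned on single libraries. The count was 5 without Dex replicate 1, Dex replicate 3 or IL27 replicate 3, 6 without Dex+IL27 replicate 2, and 7 without Ctrl replicate 1 or Dex+IL27 replicate 1.

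Set beside DNA replication genes, the mitosis genes were less reduced under Dex. The 40 replication genes (origin, MCM, polymerase and nucleotide synthesis genes) had a median of -0.86 with Dex, where 38 fell, -1.23 with IL27, where 40 fell, and -1.62 with Dex+IL27, where 39 fell. Of all genes tested, 27.4% fell with Dex, 28.1% with IL27 and 32.6% with Dex+IL27. Summed FPKM of the 54 mitosis genes was 2649, 2263 and 2189 in the Ctrl libraries, 1797, 2249 and 2035 with Dex, 1286, 1314 and 1213 with IL27, and 1318, 1404 and 1170 with Dex+IL27. Replication genes summed to 2885 to 3025 in Ctrl, 1435 to 1591 with Dex, 1238 to 1331 with IL27 and 970 to 1012 with Dex+IL27. As a percentage of the replication sum, the mitosis sum was 91.8%, 74.8% and 75.4% in Ctrl, and 125%, 141% and 131% with Dex. It was 104%, 98.8% and 93.9% with IL27 and 136%, 140.3% and 116% with Dex+IL27. Every treated library was above every Ctrl library in this ratio, and every Dex library was above every IL27 library. When Dex was added to IL27, 27 of the 40 replication genes fell, with a median of -0.39, beside 2 of the 54 mitosis genes. Of all genes tested, 14.3% fell in that comparison. These lists are described by their counts and medians, and the difference between them was not tested.

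**Figure D4:**
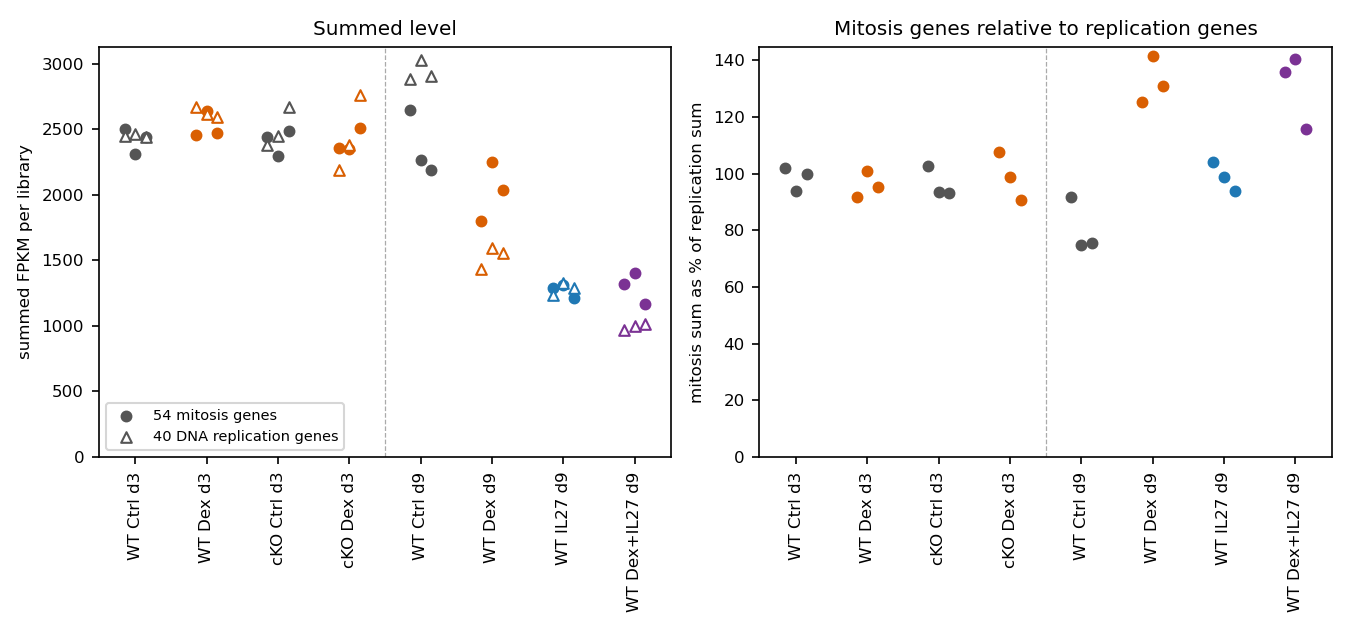
Left, summed FPKM per library of the 54 mitosis genes (filled circles) and the 40 DNA replication genes (open triangles); right, the mitosis sum as a percentage of the replication sum. At day 9 both sums fall from Ctrl to IL27 and Dex+IL27, and the ratio is 74.8% to 91.8% in Ctrl and 125% to 141% with Dex.

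Other genes of the same pathways were counted in 6 further lists, beside the shares of all genes tested: 27.4% fell and 28.2% rose with Dex, 28.1% fell and 29.3% rose with IL27, and 32.6% fell and 34.3% rose with Dex+IL27. Of 33 other kinetochore genes, 16 fell and 2 rose with Dex, 30 fell with IL27, and 28 fell and 2 rose with Dex+IL27 (medians -0.32, -0.87 and -0.94). The largest changes with Dex+IL27 were falls of Kntc1 (-1.84), Cenpi (-1.71), Ska1 (-1.55) and Zwilch (-1.54). Of 31 other spindle and centrosome genes, 12 fell and 3 rose with Dex, 23 fell and 2 rose with IL27, and 21 fell and 2 rose with Dex+IL27, where Haus5 fell by 1.88, Kif15 by 1.41 and Kpna2 by 1.35 and Psrc1 rose by 1.31. Of 9 other entry regulators, 4, 6 and 6 fell with Dex, IL27 and Dex+IL27, led in the last by Pkmyt1 (-1.11), a kinase that inhibits Cdk1, Arpp19 (-1.03), Gsg2 (-0.97), the haspin kinase, and Bora (-0.76). APC/C subunits and inhibitors, which act through much of the cell cycle, had medians closer to 0 than the members: of 16, 8 fell and 3 rose with Dex and with IL27, and 7 fell and 3 rose with Dex+IL27 (medians -0.18, -0.22 and -0.11). The largest changes of this list with Dex+IL27 were those of Anapc15 (-1.35), Fbxo5 (-1.31), Anapc5 (-1.12) and Anapc16 (0.72).

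Of 14 cohesin and other condensin genes, 6 fell and 2 rose with Dex, and 8 fell and 2 rose with IL27 and with Dex+IL27. Those that changed with Dex+IL27 held the cohesion factors Esco2 (-1.54) and Cdca5 (-1.07), the condensin II subunit Ncapg2 (-1.48) and the cohesin loader Nipbl (1.46). Of 16 MuvB, pocket protein and E2F genes, which hold the partners of Mybl2, 6 fell and 3 rose with Dex, 7 fell and 3 rose with IL27, and 7 fell and 4 rose with Dex+IL27, with medians of 0.02, -0.07 and -0.03, close to the all-gene medians of 0.03, 0.03 and 0.05. The largest changes with Dex+IL27 were falls of E2f8 (-2.80), E2f7 (-1.73), Tfdp1 (-1.43) and E2f3 (-1.37). Among the replication genes the largest with Dex+IL27 were Cdc6 (-3.51), Rrm2 (-3.23), Orc1 (-3.15) and Mcm10 (-2.47).

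At day 3, after the first stimulation, few mitosis genes passed a test between the 4 groups. With Dex in WT cells 2 of 54 rose, against a background of 4.93% of the 11967 genes tested, and 52 did not pass, with a median of 0.09. Of the 54, 40 were higher with Dex and 14 lower, and the median over all genes tested was 0.01. The split leaned on single libraries, with 32 higher and 22 lower without WT Dex replicate 2, and 46 and 8 without WT Dex replicate 1. In edgeR 13 members had an unadjusted p under 0.05, beside 2741 of the 11967 genes. Racgap1 was at 40.9, 45.9 and 50.2 FPKM in WT Ctrl, 61.3, 66.4 and 63.5 in WT Dex, 53, 50.8 and 56.1 in cKO Ctrl and 54.3, 53.4 and 53.6 in cKO Dex. Every WT Dex library was above every other day 3 library, and every cKO library was above every WT Ctrl library. Racgap1 rose with Dex in WT by 0.49 ± 0.07 (SE, adjusted p = 1.07e-04). Smc4 was at 80.6, 73.6 and 77.2 FPKM in WT Ctrl, 85.1, 89.7 and 86.8 in WT Dex, 73.01, 72.1 and 72.9 in cKO Ctrl and 70, 69.97 and 77.1 in cKO Dex. The WT Dex libraries were again above all others, and the rise of 0.19 (adjusted p = 0.0187) was lost without WT Ctrl replicate 2 or without WT Dex replicate 2 or 3. Mybl2 and Foxm1 changed by 0.35 and 0.30, which did not pass (adjusted p = 0.0694 and 0.0952). The count was 1 without any of those 3 libraries and 4 without WT Ctrl replicate 3. With only the WT Ctrl and Dex libraries fitted it was 6, and with no low-count filter it was 5.

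In cKO cells no member passed with Dex at day 3, in edgeR or in DESeq2, against a background of 0% (0 of 11967 genes). In edgeR 399 of the 11967 genes had an unadjusted p under 0.05, and 0 of the 54 members did. The median was 0.00, and intervals were narrow for abundant members, as for Cdk1 (-0.14 to 0.11), Ccnb1 (-0.11 to 0.18) and Plk1 (-0.09 to 0.25). The test of the difference between genotypes, the interaction, passed for 1 of 54 genes against a background of 1.57%. This was Racgap1 at 0.48 ± 0.10 (SE, adjusted p = 0.00813). The interaction of Mybl2 was larger at 0.53 but did not pass (adjusted p = 0.108), and the count was 3 without cKO Dex replicate 6.

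Without Dex, no member passed between cKO and WT in edgeR, against a background of 2.36% in either direction. Of all 11967 genes tested, 2049 had an unadjusted p under 0.05, and of the members Racgap1 alone did. Its difference of 0.23 (adjusted p = 0.0769) passed in DESeq2, with no low-count filter, and without WT Ctrl replicate 3. With Dex, 4 members were lower in cKO than in WT against a background of 3.28%: Espl1 at -0.42, Mybl2 at -0.50, Racgap1 at -0.25 and Smc4 at -0.27. Their adjusted p-values were 0.0186, 0.0144, 0.0319 and 0.0018. Mybl2 was at 4.24, 4.83 and 4.69 FPKM in WT Dex and 3.31, 3.04 and 3.44 in cKO Dex. Espl1 was at 7.27, 6.61 and 6.57 in WT Dex and 4.87, 4.64 and 5.77 in cKO Dex. For both genes all cKO Dex libraries lay below all WT Dex libraries. The count was 9 without cKO Dex replicate 6, 1 without cKO Dex replicate 5 and 2 without any other single library of the comparison.

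The effect of Dex differed between the times for 24 of the 54 members, a share not far from that of all genes, 5017 of 12666. In a fit of all 24 libraries, the Dex change at day 9 minus that at day 3 in WT cells was below 0 for 20 members against a background of 19.2% of 12666 genes, above 0 for 4 against 20.4%, and 30 did not pass, with a median of -0.26. The difference was largest for Mybl2 at -1.39 ± 0.23 (SE, adjusted p = 2.74e-05), which was higher with Dex at day 3 by 0.35, a value that did not pass, and fell by 1.07 at day 9. Birc5 followed at -0.84, Spc24 at -0.72, Ube2s at -0.70 and Plk1 at -0.68. Birc5 was at 113, 111 and 106 FPKM in WT Ctrl and 130.2, 134 and 130.2 in WT Dex at day 3. There every Dex library was above every Ctrl library, though the change of 0.27 did not pass (edgeR adjusted p = 0.065). At day 9 every Dex library was below every Ctrl library. The 4 genes above 0 were Cdc25b at 0.87, Nusap1 at 0.69, Anln at 0.54 and Ckap2 at 0.37. Cdc25b and Nusap1 passed in all 21 alternatives, while Anln (adjusted p = 0.046) was lost in 14 and Ckap2 in 8, both among them with library totals and without day 9 Ctrl replicate 2 or 3, where 2 genes were above 0. Racgap1 was below 0 at -0.39, since it rose with Dex at day 3 and its change at day 9 did not pass. Without day 9 Ctrl replicate 1 the count was 5 above and 13 below 0. Day and culture history go together, so time, rest and restimulation cannot be told apart.

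**Figure D5:**
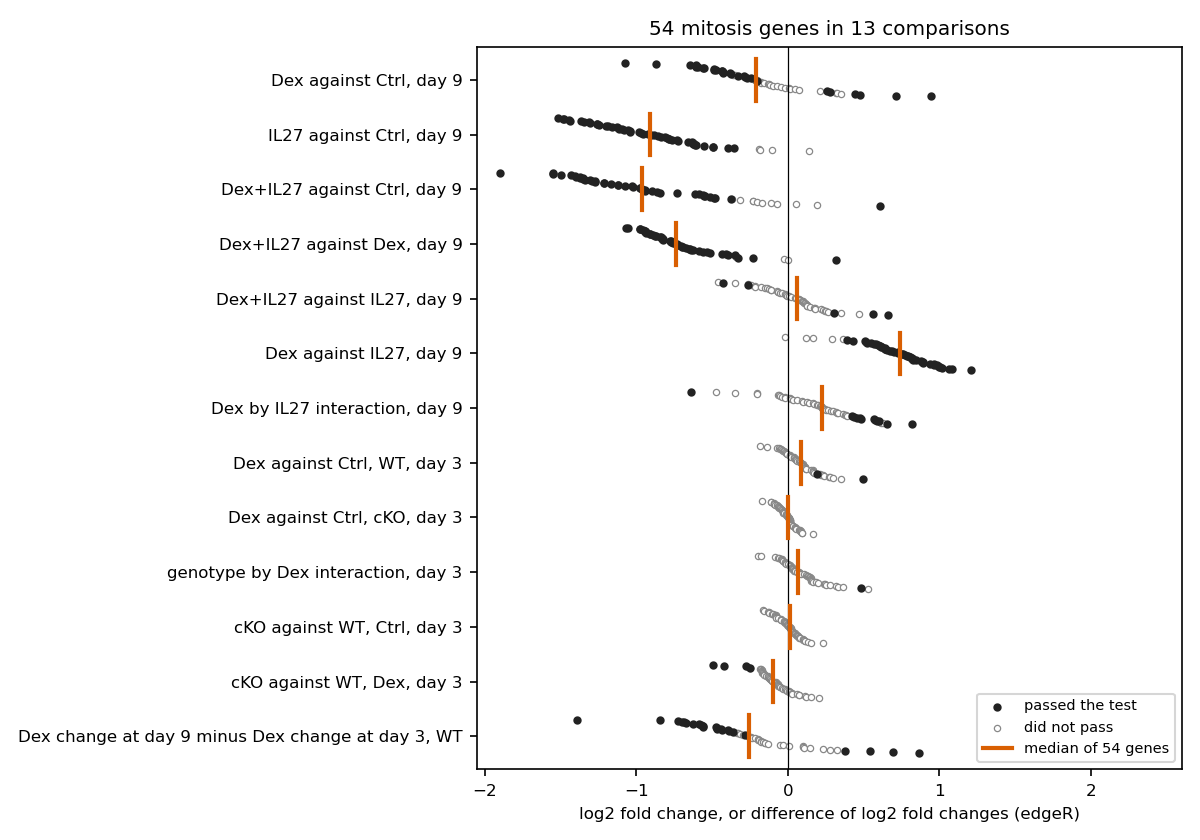
Log2 fold changes of the 54 genes (points; filled if they passed the test) in each of the 13 comparisons, with the median in orange; interaction and day 9 minus day 3 lines show differences of log2 fold changes. Dex+IL27 and IL27 against Ctrl lie farthest from 0, with medians of -0.96 and -0.91, and all 54 points of Dex in cKO cells at day 3 are open and lie between -0.17 and 0.17.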

How the data were processed

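RNA was measured in 24 libraries of 1000 cells each, prepared with a modified SMART-Seq2 method and read as 38 nt pairs. The estimated counts (RSEM, gene level) were deposited by the authors without normalization, and the authors' FPKM table, per its name, holds the same estimates after TMM scaling. The submitters' processing notes name TopHat, RSEM, DESeq and the mm9 build, with no versions; an mm9 annotation was not used here. Exon overlaps were read from another mouse annotation by gene name.

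Counts were rounded and tested with edgeR 4.0.16 (R 4.3.3): TMM, filterByExpr by group (minimum count 10, total 15), prior count 0.125, quasi-likelihood F-test, two-sided, Benjamini-Hochberg over all genes tested. The 12 libraries of a day shared 1 fit, and all 24 were fitted for day 9 minus day 3. The 13 comparisons were contrasts of group means. Alternatives were other scalings, filters and sets of libraries, DESeq2 1.42.0, limma 3.58.1 on log2(FPKM + 1) or + 0.1, a replicate block, and each library left out. Fits leaving 2 libraries in a group pooled the spread over groups. Code was tested on simulated data.

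The members, lists and naming rule (all members, library values for up to 4 abundant members per role and for those not falling with Dex+IL27, and 4 genes of each other list) were chosen with earlier results of these data known. Replicate pairs differed beyond sampling noise (chi-square per degree of freedom 4.33 to 26.8). Promoter sequences are from RefSeq (GRCm38.p6). Reads were amplified and carry no molecular identifiers.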

Additional observations from a re-analysis of the deposited data

Results flagged for a closer look

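The effect of Dex on 24 of the 54 mitosis genes differed between day 9 and day 3 in a direct test of that difference (edgeR, all 24 libraries). Of all 12666 genes tested, 5017 passed the same test, a share not far from that of the members. Among the members 20 were below 0, against 19.2% of all genes, and 4 were above 0, against 20.4%. The largest differences were -1.39 for Mybl2 and -0.84 for Birc5, below 0, and 0.87 for Cdc25b and 0.69 for Nusap1, above 0. Of the 24 calls, 15 passed in every alternative.

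The effect of Dex at day 3 differed between WT and cKO cells for 1 of the 54 mitosis genes, Racgap1. The difference was 0.48 on the log2 scale. Of all 11967 genes tested, 353 passed this test, and 1.57% passed above 0, as Racgap1 did. The Racgap1 call was lost in 1 of 22 alternatives, limma on unfiltered log2(FPKM + 1), at an adjusted p of 0.0508. Racgap1 levels in cKO cells without Dex were above those of WT cells without Dex in every library.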

How the results depend on the processing

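Counts of members called stayed within 1.5 times under every alternative run for Dex (20 to 30 with 1 library left out), IL27 (49 to 51), Dex+IL27 (43 to 46) against Ctrl, Dex+IL27 against Dex (44 to 49), Dex against IL27 (46 to 49), Dex in cKO cells (0 throughout) and day 9 minus day 3 (16 to 28). No direction of a called member reversed. The other comparisons, with few calls, moved. Dex+IL27 against IL27 (5 calls) gave 9 with no low-count filter, 8 with all 24 libraries fitted, and 1 to 9 with a library left out. The Dex by IL27 interaction (12 calls) gave 4 with limma on unfiltered log2(FPKM + 1), and 5 to 17 with a library left out. Dex in WT cells at day 3 (2 calls) gave 1 with library totals, with all 24 libraries and with unfiltered limma, 5 with no filter, 6 with only its groups fitted, and 1 to 4 with a library left out. The genotype by Dex interaction (1 call) gave 3 with no filter, 0 with unfiltered limma and 1 to 3 with a library left out. cKO against WT gave 1 call without Dex (0 calls) with no filter and with DESeq2, and 0 to 1 with a library left out. With Dex (4 calls) it gave 1 with all 24 libraries, 2 with unfiltered limma and 1 to 9 with a library left out. The causes were not tested.

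Calls that passed in every alternative were 17 of 30 for Dex, 49 of 50 for IL27, 43 of 44 for Dex+IL27, 46 of 49 for Dex against IL27 and 43 of 49 for Dex+IL27 against Dex. They were 15 of 24 for day 9 minus day 3, 4 of 12 for the Dex by IL27 interaction, 1 of 5 for Dex+IL27 against IL27, 1 of 2 for Dex in WT cells at day 3, 0 of 4 for cKO against WT with Dex and 0 of 1 for the genotype by Dex interaction. The call lost for Dex+IL27 against Ctrl was Cenpf, without Ctrl replicate 1 or Dex+IL27 replicate 3, and with limma on unfiltered log2(FPKM + 1). With library totals, the median of all genes for Dex+IL27 against Ctrl moved from 0.05 to -0.07, and that of the members from -0.96 to -1.08.

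Replicate numbers are shared between groups, but same-numbered libraries did not deviate together: correlations of deviations were -0.145 to 0.227 over 18 pairs at day 9, 3 of them over 0.1, and -0.036 to 0.10 over 6 pairs at day 3. With a replicate block, the count was 4 for Dex in WT cells at day 3 and 2 for the genotype by Dex interaction, 7 for Dex+IL27 against IL27, and 30, 50 and 45 for Dex, IL27 and Dex+IL27 against Ctrl. cKO and WT libraries share no number, so no block was possible between genotypes. Precision rests on 3 libraries a group, and the intervals beside members that did not pass bound their differences.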
